A study of Mus musculus with 4 samples.

Results

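The loci of the interleukin-2 (IL-2) receptor and STAT5 axis were examined in chromatin immunoprecipitation-sequencing (ChIP-seq) peak lists of mouse regulatory T (Treg) cells. The 9 genes were *Il2*, the receptor chains *Il2ra*, *Il2rb*, and *Il2rg*, the kinase gene *Jak3*, *Stat5a* and *Stat5b*, and the feedback inhibitors *Cish* and *Socs2*, out of 22359 protein-coding genes of the mm9 annotation. A peak was assigned to a gene when its centre lay within 50 kb of any annotated transcription start site (TSS) of that gene. By this rule 37 of 29659 JunB peaks, 21 of 13570 BATF peaks, 45 of 31093 IRF4 peaks of *Junb*-sufficient cells, and 41 of 29033 IRF4 peaks of *Junb*-deficient cells were found, 144 in all. The windows of *Stat5a* and *Stat5b* overlap and share 16 of these peaks, which were counted once in totals.

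CD4+CD25+ Treg cells from spleens of C57BL/6 mice of 6 to 12 weeks of age were cultured for 60 h with antibodies to CD3 and CD28 and with IL-2 in the medium. IL-2 was therefore present in every culture compared here. For each condition 1 library was analysed, with antibodies to JunB, BATF, or IRF4 in *Junb*-sufficient cells and to IRF4 alone in *Junb*-deficient cells. The study describes the mice as *Junb* fl/fl and Cd4Cre *Junb* fl/fl. In the latter, Cre under *Cd4* control deletes *Junb* in T cells generally, not in Treg cells only. The sample labels instead name Foxp3cre JUNB+/+ and Foxp3cre JUNBFl/Fl, in which the recombinase would act in *Foxp3*-expressing cells and would be carried by the control mice too, and which of these applied could not be settled here. An antibody label exchanges BATF and IRF4 for the *Junb*-sufficient libraries, which were named by their titles here. Peak lists hold no expression values, so Treg identity could not be checked by markers. Whether animals were pooled is not given in the sources used here.

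IL-2 binds a receptor of 3 chains, of which the alpha chain CD25 (*Il2ra*) raises affinity, and the beta chain (*Il2rb*) and the common gamma chain (*Il2rg*) signal through JAK1 and JAK3. These kinases phosphorylate STAT5A and STAT5B, which enter the nucleus and bind GAS elements in target genes, among them *Il2ra*, *Cish*, and *Socs2*. CISH and SOCS2 belong to the SOCS family, which dampens cytokine receptor signalling. Treg cells produce little IL-2 themselves and depend on IL-2 from other T cells, and CD25 is one of their defining surface molecules. JunB and BATF are AP-1 factors that bind DNA as dimers. IRF4 can join BATF and a JUN protein on composite AP-1-IRF elements (AICE).

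The reference sequences of the JunB peaks below are shown because they mark the JunB, BATF, and IRF4 sites of the axis that the comparisons turn on, and with them a pair of *Il2ra* peaks singled out after their values were seen. All are mm9, plus strand. Capitals mark matches to the AP-1 letters TGANTCA, to the GAS letters TTCNNNGAA, or to AICE, written in parts as TTTC, 4 bases, and TGANTCA, or GAAA directly followed by TGANTCA, each read on both strands. AICE contains the AP-1 letters, so an AICE match is also an AP-1 match.
*Il2ra*, 25.7 kb upstream, IRF4 listed in both genotypes, chr2:11538628-11538778: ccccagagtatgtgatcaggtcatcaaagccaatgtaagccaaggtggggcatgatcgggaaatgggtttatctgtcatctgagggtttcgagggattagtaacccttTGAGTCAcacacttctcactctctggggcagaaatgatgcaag
*Il2ra* TSS, IRF4 listed in *Junb*-sufficient cells only, no match, chr2:11564203-11564353: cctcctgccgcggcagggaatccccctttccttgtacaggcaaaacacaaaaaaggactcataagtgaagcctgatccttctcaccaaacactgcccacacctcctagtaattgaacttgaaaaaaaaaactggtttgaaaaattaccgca
*Il2ra*, intron, 8.9 kb downstream, JunB alone, chr2:11573241-11573391: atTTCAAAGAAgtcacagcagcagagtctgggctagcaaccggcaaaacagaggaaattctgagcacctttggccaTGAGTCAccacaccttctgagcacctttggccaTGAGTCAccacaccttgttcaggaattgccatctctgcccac
*Stat5b*, intron, IRF4 listed in *Junb*-sufficient cells only, chr11:100705545-100705695: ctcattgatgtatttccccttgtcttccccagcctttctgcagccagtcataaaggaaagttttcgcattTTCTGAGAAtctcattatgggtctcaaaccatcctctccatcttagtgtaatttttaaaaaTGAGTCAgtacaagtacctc
*Stat5a* window, in an intron of *Stat3*, IRF4 listed in both, chr11:100782654-100782804: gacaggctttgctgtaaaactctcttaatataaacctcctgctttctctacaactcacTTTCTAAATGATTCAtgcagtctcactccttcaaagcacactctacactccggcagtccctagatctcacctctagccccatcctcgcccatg
*Cish*, 7.3 kb downstream, IRF4 listed in *Junb*-sufficient cells only, chr9:107205565-107205715: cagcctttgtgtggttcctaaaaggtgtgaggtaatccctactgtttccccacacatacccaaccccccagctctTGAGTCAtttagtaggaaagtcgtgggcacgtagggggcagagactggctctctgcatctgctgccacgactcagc
*Cish*, 17.0 kb downstream, IRF4 listed in both, chr9:107215300-107215450: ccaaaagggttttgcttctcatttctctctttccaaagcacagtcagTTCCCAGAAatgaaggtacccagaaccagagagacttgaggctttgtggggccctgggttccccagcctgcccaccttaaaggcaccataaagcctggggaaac
*Socs2*, 45.0 kb downstream, IRF4 listed in both, chr10:94834746-94834896: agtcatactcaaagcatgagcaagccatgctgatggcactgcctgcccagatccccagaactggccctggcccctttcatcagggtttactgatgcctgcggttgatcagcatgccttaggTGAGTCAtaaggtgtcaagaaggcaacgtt
*Il2*, 47.5 kb upstream, IRF4 listed in both, chr3:37072301-37072451: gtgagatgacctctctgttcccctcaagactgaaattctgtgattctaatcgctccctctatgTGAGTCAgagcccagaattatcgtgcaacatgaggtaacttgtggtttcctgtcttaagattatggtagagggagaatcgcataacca
*Il2rb* window, in an intron of *Tmprss6*, IRF4 listed in both, chr15:78280599-78280749: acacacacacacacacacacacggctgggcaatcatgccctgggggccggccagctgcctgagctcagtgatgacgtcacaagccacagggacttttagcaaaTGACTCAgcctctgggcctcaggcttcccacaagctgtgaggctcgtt

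Peaks were called by the authors in each library by itself with HOMER. The score is 1 for every peak, so heights could not be compared and a peak was read as listed or not listed. By which value the peaks were ordered is not stated in the headers. The order was taken as running from stronger to weaker peaks, because early peaks were shared between lists more often than late ones. An overlapping *Junb*-deficient peak was found for 95% of the 3096 IRF4 peaks in the first of 10 parts of the *Junb*-sufficient list and for 31.9% of the 2988 in the last part. For *Junb*-deficient IRF4 peaks with a *Junb*-sufficient one these shares were 95.8% and 40.6%, for JunB peaks with BATF 88.6% and 9.45%, and for BATF peaks with JunB 99.6% and 31.2%. Place is given as a percentage of the list, counted from its start. Long stretches of the lists run in order of chromosome and position, as tied peaks would, and each peak was given the middle place of its stretch. The longest stretch held 7.29% of the JunB list, 1.93% of the BATF list, and 1.94% and 2.48% of the IRF4 lists of *Junb*-sufficient and *Junb*-deficient cells, so smaller differences of place were not read. The 4 libraries held 21127029 to 27399986 tags, of which 16.0 to 17.9 M (M, mega) remained after the limit of 1 tag per bp. Peaks that overlapped by at least 1 bp were taken as shared. Genotypes were not tested against each other, since 1 library per condition was analysed here and no repeat of the experiments was used. Exact binomial (Clopper-Pearson) 95% intervals of shares cover counting error over peaks only, and neighbouring peaks of 1 locus are not independent.

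All 9 loci held IRF4 peaks in both genotypes, whereas JunB peaks were listed at 7 loci and BATF peaks at 8. Over all protein-coding genes, 64.9% had at least 1 JunB peak within 50 kb and 48.9% a BATF peak, and IRF4 was listed at 74% of genes in *Junb*-sufficient and at 73.3% in *Junb*-deficient cells, so having such a peak was also common elsewhere. The median gene had 1 JunB, 0 BATF, and 2 IRF4 peaks in each genotype, and the medians over the 9 genes were 3, 2, 5, and 5. Beside each count below stands, in parentheses, the share of protein-coding genes with at least as many.

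*Il2ra* had the most JunB peaks of the 9 genes, *Il2rb* the most BATF peaks and the most IRF4 peaks of *Junb*-sufficient cells, and *Il2rg* and *Jak3* had no JunB peak. *Il2ra* had 12 JunB peaks (0.702%), 3 BATF peaks (11.0%), and 2 (60.4%) and 3 (42.9%) IRF4 peaks in *Junb*-sufficient and *Junb*-deficient cells. *Il2rb* had 8 JunB (2.80%), 9 BATF (0.116%), 11 (0.492%), and 9 (1.15%) IRF4 peaks, listed in the same order. Many JunB peaks therefore came with few IRF4 peaks at the first gene and with many at the second. *Il2* had 3 (24.2%), 1 (48.9%), 4 (30.5%), and 2 (59.1%). *Il2rg* had IRF4 peaks alone, 5 (17.9%) and 3 (42.9%). *Jak3* had 1 BATF peak (48.9%) with 4 (30.5%) and 3 (42.9%) IRF4 peaks.

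The signal transducers and inhibitors follow. *Stat5a* had 5 (9.22%), 3 (11.0%), 6 (10.0%), and 9 (1.15%). *Stat5b* had 3 (24.2%), 2 (24.6%), 4 (30.5%), and 7 (4.66%). *Cish* had 6 (5.97%), 2 (24.6%), 8 (2.75%), and 7 (4.66%). *Socs2*, the last, was nearer to the middle of all genes with 3 (24.2%), 2 (24.6%), 5 (17.9%), and 5 (16.6%). *Il2*, *Il2rb*, and *Il2rg* each had 2 fewer IRF4 peaks in *Junb*-deficient than in *Junb*-sufficient cells, and 10.9% of genes had at least 2 fewer. Windows of this size reach into neighbouring genes, and the nearest protein-coding TSS belonged to 1 of the 9 genes for 75 of the 144 peaks.

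**Figure D1:**
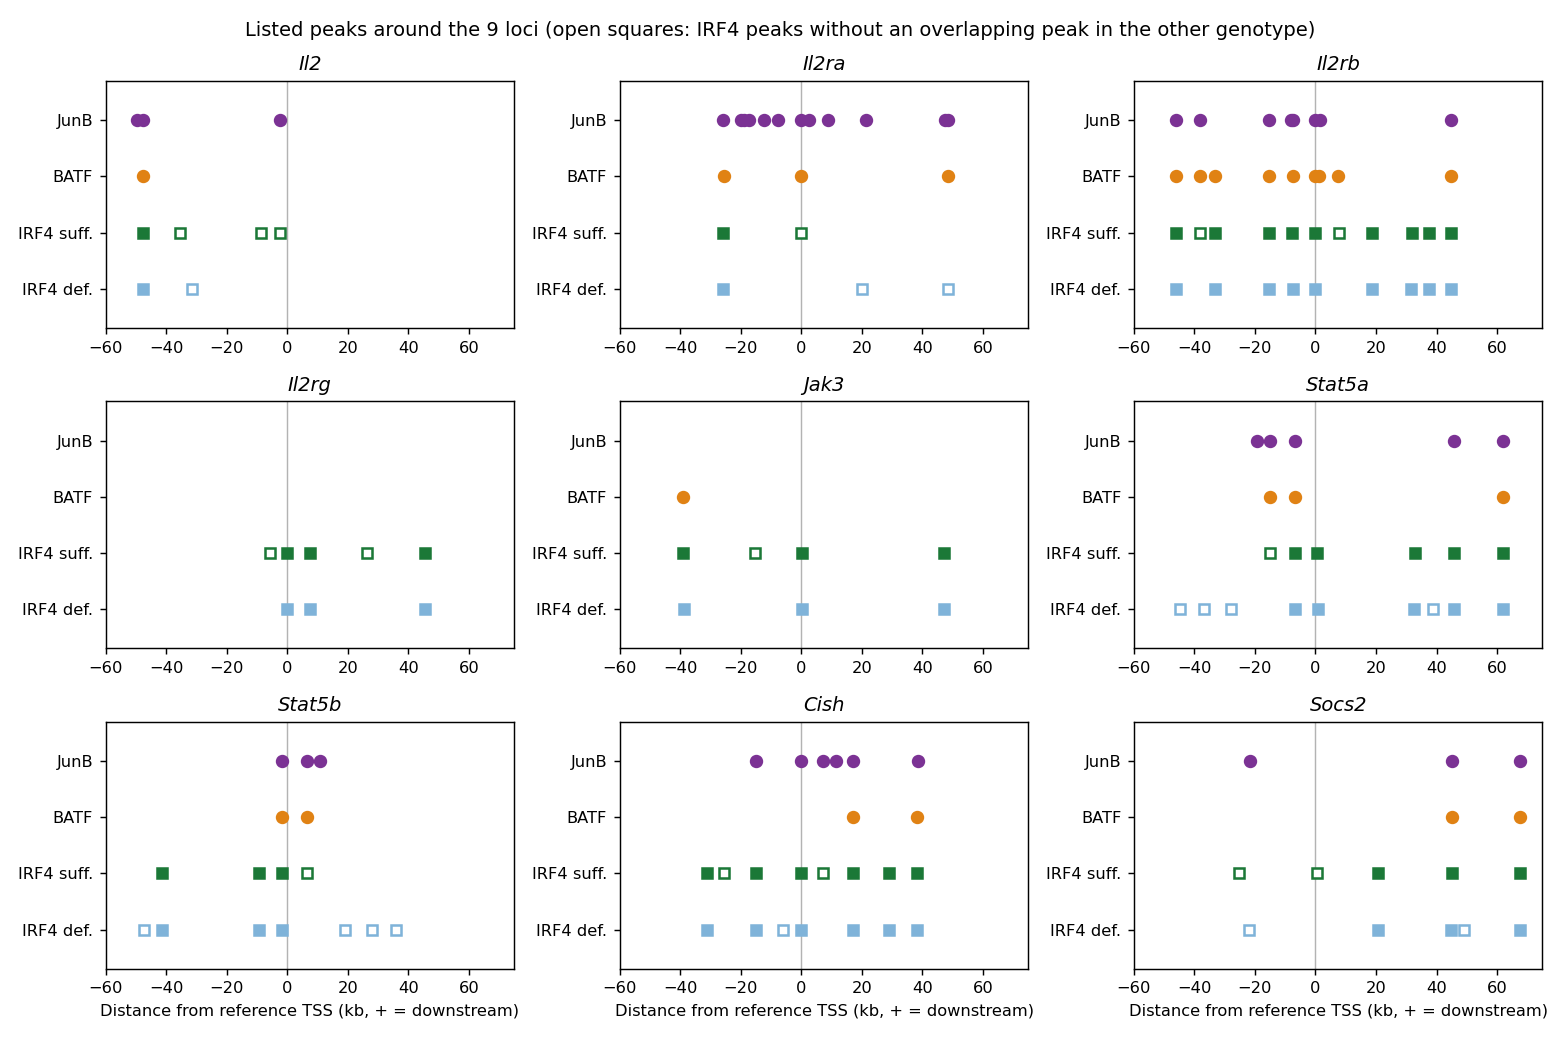
Peaks listed at the 9 loci by distance of the peak centre from the reference TSS (kb, downstream positive), with 1 row per library. Open squares are IRF4 peaks without an overlapping peak in the other genotype. JunB peaks crowd the *Il2ra* locus (12), JunB is not listed at *Il2rg* and *Jak3*, and open squares of *Junb*-deficient cells gather at *Stat5b*. Distances run past 50 kb where a downstream TSS of the gene sets the window.

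**Figure D2:**
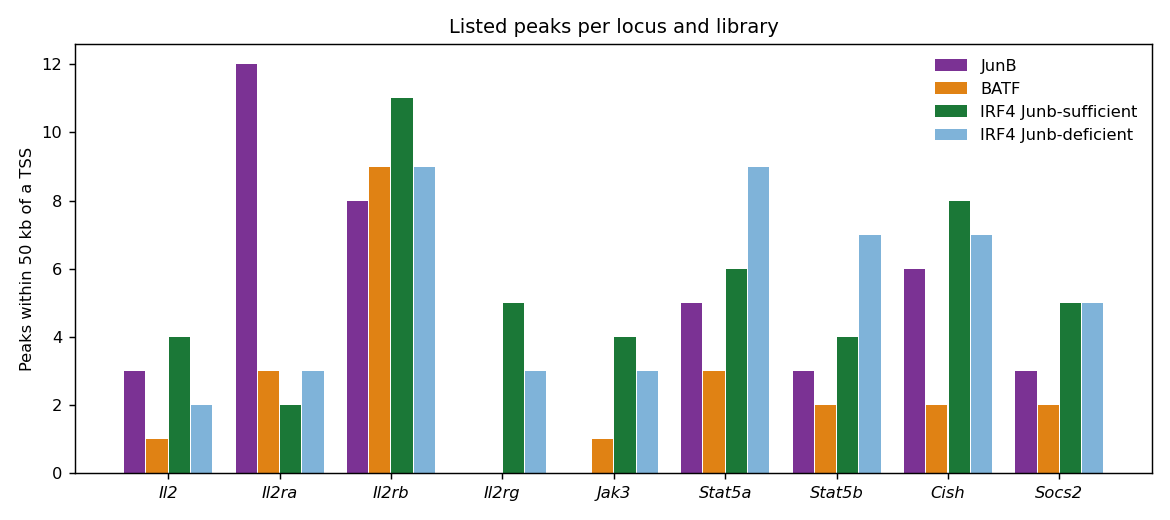
Number of listed peaks within 50 kb of a TSS of each gene, 1 bar per library. *Il2ra* stands out by its 12 JunB peaks beside 2 IRF4 peaks in *Junb*-sufficient cells, and *Il2rb* by 9 BATF and 11 IRF4 peaks. The JunB list differed from the others in peak spacing and local filtering.

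Merging overlapping peaks of the 4 lists gave 69 sites. Of these, 13 were in all 4 lists, and 3 more were in the JunB, BATF, and *Junb*-sufficient IRF4 lists but not in the *Junb*-deficient list. IRF4 of both genotypes was listed without JunB or BATF at 13 sites, JunB alone at 13, IRF4 of *Junb*-deficient cells alone at 9, and IRF4 of *Junb*-sufficient cells alone at 8. Of the 37 JunB peaks, 15 overlapped both BATF and IRF4 of *Junb*-sufficient cells (40.5%, 95% interval 24.8 to 57.9%), against 30.1% of the whole JunB list. A further 13 overlapped neither (35.1%, 20.2 to 52.5%), against 54.3% of the whole list, which lies outside the interval. Of these 13, 9 were at *Il2ra*. At the 20 other pathway genes described below, 40.6% of JunB peaks overlapped both and 41.7% neither (31.7 to 52.2%). A low share of JunB alone was thus not particular to the 9 loci. JunB peaks were 151 bp wide and passed at 10 tags, whereas BATF and IRF4 peaks of *Junb*-sufficient cells were 613 bp wide and passed at 19 tags, and the part of these settings in the share of JunB alone was not tested. Of the 21 BATF peaks, 16 overlapped both JunB and IRF4 (76.2%, 52.8 to 91.8%), against 66.0%. At the 15 JunB peaks shared with both partners, the JunB centre lay 1 to 167 bp from the BATF centre, with a median of 8 bp, and 7 to 180 bp from the IRF4 centre, with a median of 21 bp. The whole list gave medians of 24 bp for both partners.

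*Il2*, the gene of the cytokine itself, lies on chromosome 3. No peak of any list lay within 1 kb of its TSS. The nearest site to the gene was 2.5 kb upstream, where a JunB peak (chr3:37027330-37027480, place 37.3%) overlapped an IRF4 peak of *Junb*-sufficient cells (chr3:37027070-37027682, place 34.6%). BATF was not listed there, and in *Junb*-deficient cells the nearest IRF4 centre was 28823 bp away. In the same of the 10 parts of the list, 29.3% of *Junb*-sufficient IRF4 peaks at JunB had none. The only site with all factors lay 47.5 kb upstream, close to the edge of the window, and carries the AP-1 letters in the sequence shown above. At that site IRF4 stood at 8.42% of the list in *Junb*-sufficient and at 7.29% in *Junb*-deficient cells. Among the 4 IRF4 peaks of *Junb*-sufficient cells at *Il2*, 3 had no *Junb*-deficient counterpart, and among 2810 genes with 4 such peaks 12.4% had at least 3 without one. The other missing peaks, 8.7 kb and 35.3 kb upstream, were off JunB at 63.4% and 51.2%. A *Junb*-deficient peak without counterpart stood 31.3 kb upstream, its centre 3998 bp from the latter.

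*Il2ra*, which encodes CD25, spans chr2:11564419-11614818 on the plus strand. Its TSS region held a JunB peak (place 5.38%), a BATF peak (chr2:11563971-11564583, place 16.6%), and an IRF4 peak of *Junb*-sufficient cells (chr2:11563982-11564594, place 3.50%), with centres 131 to 142 bp upstream of the TSS. No IRF4 peak was listed there in *Junb*-deficient cells, and the nearest one lay 20106 bp away. An IRF4 peak with JunB and BATF within 1 kb of a TSS was found at 534 protein-coding genes (2.39%), and at 11.4% of these 534 genes such a peak had no *Junb*-deficient counterpart. Among all *Junb*-sufficient IRF4 peaks at JunB in the first of the 10 parts of the list, 4.94% had none. HOMER drops a peak that does not exceed the surrounding 10 kb by 4-fold, which removed 37.4% of candidate IRF4 peaks in *Junb*-sufficient and 36.2% in *Junb*-deficient cells, and its part in any missing peak was not tested. The reference sequence of the JunB peak at the TSS held no match to the AP-1, AICE, or GAS letters.

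The other site of *Il2ra* with all 3 factors lay 25.7 kb upstream of the TSS, in intergenic sequence with the TSS of *Gm17355* as the nearest. It held a JunB peak at 4.22%, a BATF peak at 6.71%, and a *Junb*-sufficient IRF4 peak at 1.42% (chr2:11538387-11538999), all near the top of their lists. The IRF4 peak was kept in *Junb*-deficient cells (chr2:11538397-11539001) but stood at 12.2%, 10.8 percentage points further down the list. Of the 2848 *Junb*-sufficient IRF4 peaks at JunB in the same part of the list that were listed in both genotypes, 16.6% moved down as far.

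*Il2ra* also had peaks of *Junb*-deficient cells that the *Junb*-sufficient IRF4 list lacked. A peak at 11.5% of the *Junb*-deficient list stood 20.0 kb downstream of the TSS, in an intron (chr2:11584092-11584696). No JunB peak overlapped it, and the nearest JunB centre was 1315 bp away. Another lay 48.6 kb downstream, in an untranslated part of an exon near the 3′ end of the gene (chr2:11612675-11613279, place 31.1%), over a JunB peak at 6.12% and a BATF peak at 37.3%. This was the only IRF4 peak of the 9 loci that was at JunB and listed in *Junb*-deficient cells alone. Among protein-coding genes 5.01% had such a peak. In the same part of the *Junb*-deficient list, 8.21% of IRF4 peaks at JunB had no *Junb*-sufficient counterpart.

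Most JunB peaks of *Il2ra* overlapped no BATF or IRF4 peak, with no allowance for the unlike spacing and filtering of the lists. JunB stood alone at 9 of 12 peaks, and 9 or more such peaks were found at 0.313% of protein-coding genes. They ran from 20.0 kb upstream to 47.3 kb downstream, at places from 7.17% to 78.9% of the JunB list. The best-placed of them were 12.3 kb upstream (chr2:11552015-11552165, place 7.17%), with 2 AP-1 matches, and 8.9 kb downstream in an intron (place 8.26%), with 2 AP-1 matches and 1 GAS match in the sequence shown above. Both were thus listed higher than most JunB peaks that had partners, whose median place over the whole list was 20.6%.

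*Il2rb*, the beta chain gene on the minus strand of chromosome 15, had 11 IRF4 peaks in *Junb*-sufficient and 9 in *Junb*-deficient cells, the latter as many as *Stat5a*. At its TSS a JunB peak (chr15:78325534-78325684, place 20.6%), a BATF peak (27.5%), and an IRF4 peak (chr15:78325316-78325928, place 3.30%) lay together with centres 113 to 126 bp upstream. In *Junb*-deficient cells IRF4 was listed there at 1.63%. The TSS regions of *Il2ra* and *Il2rb* thus stood within 1 percentage point of each other in the *Junb*-sufficient IRF4 list, and only the latter was listed in *Junb*-deficient cells. A further JunB and BATF site 1.4 kb downstream, in the untranslated part of an exon and 70 bp from another annotated TSS, had no IRF4 peak in either genotype.

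Upstream of *Il2rb*, IRF4 peaks at 7.9 kb and 15.3 kb were listed in both genotypes, at 11.3% and 6.96% in *Junb*-sufficient and 4.58% and 14.0% in *Junb*-deficient cells. The first of these sites held 2 JunB peaks, 7.5 kb and 7.9 kb upstream, of which the former overlapped BATF and the *Junb*-deficient but not the *Junb*-sufficient IRF4 peak. The site 38.2 kb upstream (chr15:78363383-78363995, place 29.6%) carried all 3 factors and was not listed in *Junb*-deficient cells, where an IRF4 centre lay 4905 bp away. Its nearest TSS was that of *C1qtnf6*. In the third of the 10 parts of the list 21.8% of *Junb*-sufficient IRF4 peaks at JunB had no counterpart. Off JunB, 4 of 5 IRF4 peaks were kept, among them one at 33.3 kb in an intron of *C1qtnf6* that moved from 16.5% to 6.03%. All JunB peaks of this locus stood at 20.6% or later in their list, whereas 4 of its 6 IRF4 peaks at JunB stood within the first 14.0% in *Junb*-sufficient cells.

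*Il2rg*, on the X chromosome, and *Jak3*, on chromosome 8, encode the receptor chain and the kinase that bind each other. Neither had a JunB peak within 50 kb. Among the 6816 genes with at least 4 IRF4 peaks in *Junb*-sufficient cells, 10.5% had no JunB peak. IRF4 was listed at the TSS of *Il2rg* in both genotypes (chrX:98463272-98463884, place 41.5%, and chrX:98463342-98463946, place 37.9%), with the centres 16 bp and 50 bp from a TSS. The *Jak3* TSS peak (chr8:74200038-74200650, place 27.6%) was listed in *Junb*-deficient cells at 39.5%. It was centred in exons of *Jak3* and *Gm9933*, and which of these is coding there was not separated. A BATF peak with IRF4 of both genotypes lay 39.0 kb upstream of *Jak3*, in an intron of *Unc13a*. Of the other IRF4 peaks in the *Il2rg* window, those 45.6 kb downstream and 5.7 kb upstream lay 67 bp and 33 bp from the TSSs of *Snx12* and *Med12*, and the *Med12* peak (place 89.5%) was not listed in *Junb*-deficient cells.

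*Stat5a* and *Stat5b* lie head to head on chromosome 11, with *Stat3* next to *Stat5a*. Between both genes, 1.8 kb upstream of *Stat5b*, JunB (37.3%), BATF (23.9%), and IRF4 shared a site that was kept in *Junb*-deficient cells (chr11:100713488-100714100, 6.49% to 6.66%). A second shared site in an intron of *Stat5b*, 6.4 kb downstream of its TSS, was not kept. There JunB stood at 4.92%, BATF at 7.63%, and IRF4 of *Junb*-sufficient cells at 6.32% (chr11:100705293-100705905), and the nearest *Junb*-deficient IRF4 centre was 8199 bp away. The sequence of this intron site, shown above, holds 1 GAS match and 1 AP-1 match. In the same part of the list 4.94% of *Junb*-sufficient IRF4 peaks at JunB had no counterpart. The site with the best BATF place of the 9 loci (3.58%) lay in an intron of *Stat3* in the window of a downstream TSS of *Stat5a*. That TSS is not of a protein-coding transcript, and by protein-coding TSSs alone the site fell outside the windows. The nearest protein-coding TSS was that of *Stat3*, 17965 bp from the JunB centre. This site held the single AICE match among the 37 JunB peaks, and its IRF4 peak was listed in both genotypes (7.42% and 11.4%).

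*Junb*-deficient cells had more IRF4 peaks than *Junb*-sufficient cells at the STAT5 genes, 9 against 6 at *Stat5a* and 7 against 4 at *Stat5b*. A surplus of at least 3 was found at 1.84% of protein-coding genes, and both genes rest largely on the same peaks. Of these, 4 were listed in *Junb*-deficient cells alone. They comprised 3 in introns of *Stat5b*, 19.1 kb, 28.1 kb, and 36.0 kb downstream of its TSS, and 1 in an intron of *Stat3*, and stood at 42.9%, 20.1%, 44.8%, and 23.4% of the list. At least 4 such peaks were found at 1.41% of genes. None overlapped a JunB or BATF peak. The peak 28.1 kb downstream lay 107 bp from an internal TSS of *Stat5b*. At the TSS of *Stat5a* an IRF4 peak without JunB was kept and stood at 34.1% and 19.5%.

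The feedback inhibitor gene *Cish*, on chromosome 9, had IRF4 with JunB at its TSS. The JunB peak (chr9:107198042-107198192, place 23.1%) and the IRF4 peaks (chr9:107197867-107198479, place 5.92%, and chr9:107197871-107198475, place 2.76%) lay 184 to 240 bp upstream, and BATF was not listed there. A site 17.0 kb downstream, with a GAS match in the sequence shown above, held all 3 factors. Its IRF4 peak stood at 2.01% in *Junb*-sufficient and 1.94% in *Junb*-deficient cells, which is within the resolution of the lists. Between these, 7.3 kb downstream and past the 3′ end of the gene, an IRF4 peak at 4.22% (chr9:107205369-107205981) with JunB at 17.6% had no *Junb*-deficient counterpart, and the nearest was 7502 bp away. That JunB peak carries the AP-1 letters. Of these 3 IRF4 sites at JunB, which all stood within the first 5.92% of the *Junb*-sufficient list, 2 were thus listed in both genotypes and 1 was not. Further IRF4 sites at JunB lay 15.1 kb upstream, 51 bp from a TSS of *Mapkapk3*, and 38.4 kb downstream, in an intron of *Hemk1*, and both were kept (25.6% to 11.0%, and 10.7% to 7.44%). A *Junb*-deficient peak without counterpart, 6.1 kb upstream, lay 69 bp from another TSS of *Mapkapk3*.

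*Socs2*, on chromosome 10, had its JunB, BATF, and IRF4 sites far downstream of the reference TSS, at 45.0 kb and 67.6 kb, the latter nearest to *Cradd*. By protein-coding TSSs alone the latter site fell outside the window. IRF4 was listed at both sites in both genotypes, at 7.22% and 8.52% for the first and at 7.78% and 14.2% for the second. JunB stood at 6.37% and 6.12% there. The TSS of *Socs2* held an IRF4 peak without JunB or BATF (chr10:94879154-94879766, place 42.2%) that was not listed in *Junb*-deficient cells, the nearest IRF4 centre being 20224 bp away. This peak is rich in G and C (72.1% within 100 bp of its centre) and holds 2 GAS matches. An IRF4 peak in an intron, 20.6 kb downstream, was kept (46.0% and 37.9%). *Junb*-deficient cells had 2 IRF4 peaks without counterpart, 49.2 kb downstream (17.4%) and 22.1 kb upstream (25.8%). Neither overlapped JunB, and the JunB centre nearest to the latter was 493 bp away.

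Over the promoters, an IRF4 peak centred within 1 kb of a TSS was found in *Junb*-sufficient cells at 7 of 9 genes, against 24.8% of protein-coding genes, and in *Junb*-deficient cells at 6 of 9, against 27.2%. JunB was found at 3 (*Il2ra*, *Il2rb*, and *Cish*), against 7.69%, and BATF at 2 (*Il2ra* and *Il2rb*), against 4.97%. Of the 7 promoter IRF4 peaks of *Junb*-sufficient cells, those of *Il2rb*, *Il2rg*, *Jak3*, *Stat5a*, and *Cish* were kept, and those of *Il2ra* and *Socs2* were not. Over all genes with such a peak, 22.7% kept none.

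Across the 9 loci, IRF4 peaks of *Junb*-sufficient cells overlapped JunB in 21 of 45 cases (46.7%, 31.7 to 62.1%), against 40.3% of the whole list. With the BATF and IRF4 libraries exchanged, as the antibody label would have it, this share was 85.7%, and the share of *Junb*-deficient peaks without counterpart given below was 61.0% in place of 24.4%. As titled, no *Junb*-deficient peak overlapped 14 of the 45 (31.1%, 18.2 to 46.6%), against 35.0%. For the 21 peaks at JunB it was 5 (23.8%, 8.22 to 47.2%), against 23.8%, and for the 24 off JunB it was 9 (37.5%, 18.8 to 59.4%), against 42.5%. With BATF in addition it was 3 of 16 (18.8%, 4.05 to 45.6%), against 16.4%. In the other direction, 10 of 41 *Junb*-deficient peaks had no *Junb*-sufficient counterpart (24.4%, 12.4 to 40.3%), against 30.4%, with 1 of 17 at JunB (5.88%, against 7.44%) and 9 of 24 off JunB (37.5%, against 42.7%). The shares at the 9 loci lay near those of the whole lists in every class, and every interval included the share of the whole list. Peaks at JunB stood earlier in the list than peaks off JunB, and at a like place the order of the whole-list shares was mostly the other way. In the second of the 10 parts of the *Junb*-sufficient list 13.2% of peaks at JunB and 8.25% of peaks off JunB had no counterpart, in the fifth 37.6% and 26.9%, and in the ninth 63.2% and 59.5%. The share at JunB was the higher one in each of the parts from the second to the ninth, and the lower one in the first (4.94% and 8.00%) and the last (66.8% and 68.2%). By genes, 6 of 9 had an IRF4 peak at JunB without *Junb*-deficient counterpart (*Il2*, *Il2ra*, *Il2rb*, *Stat5a*, *Stat5b*, and *Cish*, with 1 shared by the STAT5 genes), against 16.2% of protein-coding genes. A site with JunB, BATF, and IRF4 of *Junb*-sufficient cells was found at 7 of 9, against 35.1%. At the 20 other pathway genes described below, these counts were 7 and 16. Both comparisons by genes were not matched for peak number. The 9 genes had medians of 3 JunB and 5 *Junb*-sufficient IRF4 peaks, against 1 and 2 over all genes, and so more peaks that could be missing. When a *Junb*-deficient IRF4 centre within 5 kb was accepted as counterpart in place of an overlap, 4 of 21 peaks at JunB remained missing (19.0%), against 17.6% of such peaks in the whole list. Stricter rules raised the shares over all IRF4 peaks of the 9 loci. With centres within 100 bp, 18 of 45 *Junb*-sufficient peaks (40.0%) and 14 of 41 *Junb*-deficient peaks (34.1%) had no counterpart. With an overlap of 50% of the shorter peak these were 16 of 45 (35.6%) and 12 of 41 (29.3%). Whole-list shares under the stricter rules are not given here.

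**Figure D3:**
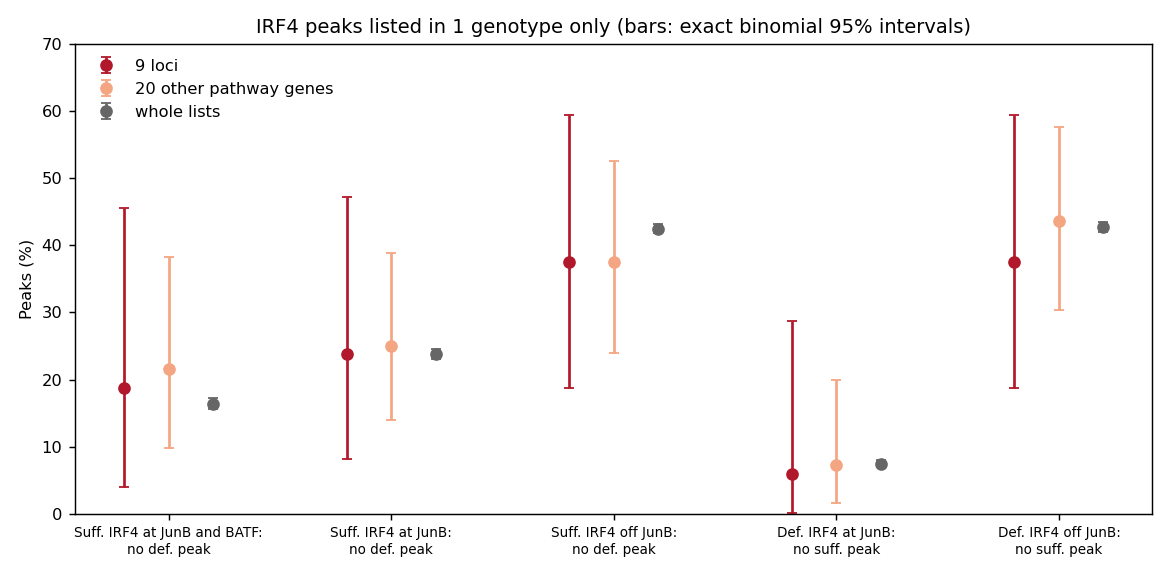
Share of IRF4 peaks listed in 1 genotype only (percent of peaks, points) with exact binomial 95% intervals (bars), by overlap with JunB and BATF, for the 9 loci, 20 other pathway genes, and the whole lists. Peaks in the windows of both *Il2ra* and *Il15ra* are counted for the 9 loci and for the 20 other genes. The shares off JunB were above those at JunB in all 3 sets, with no matching for place. Their intervals overlapped at the 9 loci and, for *Junb*-sufficient peaks, also at the 20 other genes. Every interval of the 9 loci includes the value of the whole list.

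Missing peaks at JunB included some from the top of the list. At JunB, the 5 missing peaks stood at 3.50%, 4.22%, 6.32%, 29.6%, and 34.6% of the list, a range that the 16 kept peaks covered as well (1.42% to 43.7%, median 7.60%). Off JunB, the 9 missing peaks stood at 42.2% to 91.2% and the 15 kept ones at 16.5% to 99.8%, with the 7 earliest, up to 41.5%, all kept. In the whole list most such peaks were kept too, with 8.25%, 15.7%, 20.6%, and 26.9% of peaks off JunB missing in the second to the fifth of the 10 parts. In the first of the 10 parts of the list, 3 of 13 peaks at JunB were missing, against 4.94%. This count was looked at after the places were seen, rests on the *Il2ra* TSS, *Cish*, and *Stat5b* peaks alone, and was not tested. Peaks at JunB stood earlier (median 7.42%) than peaks off JunB (57.4%), with the same order in the whole list (23.0% and 66.0%).

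The 31 IRF4 peaks listed in both genotypes were compared by place. Of these, 6 moved by no more than 2.48 percentage points, the longest stretch of the IRF4 lists, and have no readable direction. Of the others, 14 stood earlier and 11 later in the *Junb*-deficient list, and in the whole list 8160 stood earlier and 8670 later of 20218. At JunB, 6 of 16 stood earlier, 5 later, and 5 were within the stretch, against 2648, 4687, and 2204 of 9539. At JunB the furthest moves were down by 20.6 points for the *Il2rb* peak 46.2 kb upstream, in an intron of *Sstr3*, and up by 17.9 points for the *Stat5a* peak in an untranslated exon of *Stat3*.

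**Figure D4:**
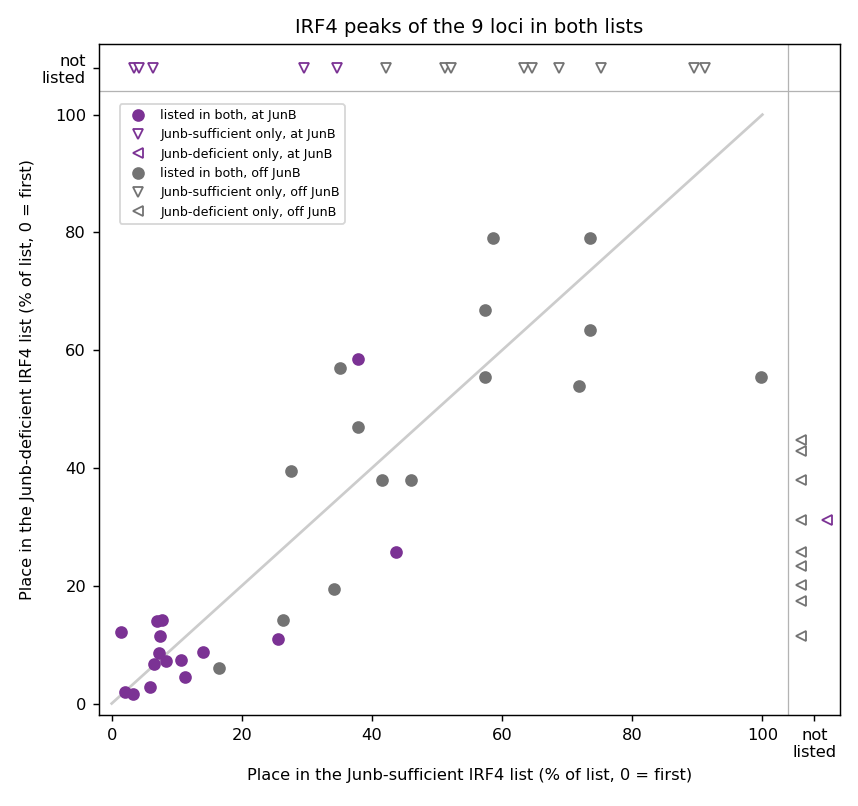
Place of each IRF4 peak of the 9 loci in the *Junb*-sufficient list (x axis) and the *Junb*-deficient list (y axis), in percent of the list, with peaks listed in 1 genotype only in the margins. Peaks at JunB (purple) stand mostly near the origin, with 13 of 21 within the first 14.2% of both lists, while 5 at JunB are in the margin of peaks listed in *Junb*-sufficient cells only and 1 in that of *Junb*-deficient cells only.

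Motif letters were counted within 100 bp of each peak centre. AP-1 letters were found in 14 of the 37 JunB peaks (37.8%, 22.5 to 55.2%), against 31.0% of the whole list, and in 7 of the 15 JunB peaks with BATF and IRF4 (46.7%, 21.3 to 73.4%), against 50.1%. IRF4 peaks of *Junb*-sufficient cells at JunB carried them in 8 of 21 cases (38.1%, 18.1 to 61.6%, against 46.2%). Off JunB it was 1 of 24 (4.17%, 0.105 to 21.1%), which lies below the 22.9% of the whole list. GAS letters were found in 8 of 37 JunB peaks (21.6%, 9.83 to 38.2%), against 10.0% of the whole list, and 4 of these 8 peaks were at *Il2ra*. The interval includes the share of the whole list. At IRF4 peaks of *Junb*-sufficient cells GAS letters were as frequent as in the whole list, at 5 of 45 (11.1%, against 11.4%). AICE letters were found in 1 of 37 JunB peaks (2.70%, against 2.59%). A pair of GAAA letters 2 bases apart, an IRF element, was found in 1 of 45 IRF4 peaks (2.22%, 0.0562 to 11.8%, against 9.49%). Base composition also differed from the whole lists, with a median GC content of 47.3% against 39.3% for JunB peaks and of 50.2% against 42.3% for *Junb*-sufficient IRF4 peaks at JunB. The gap was smaller for *Junb*-sufficient IRF4 peaks off JunB, at 49.3% against 46.3%. The part of base composition in the motif shares was not tested.

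**Figure D5:**
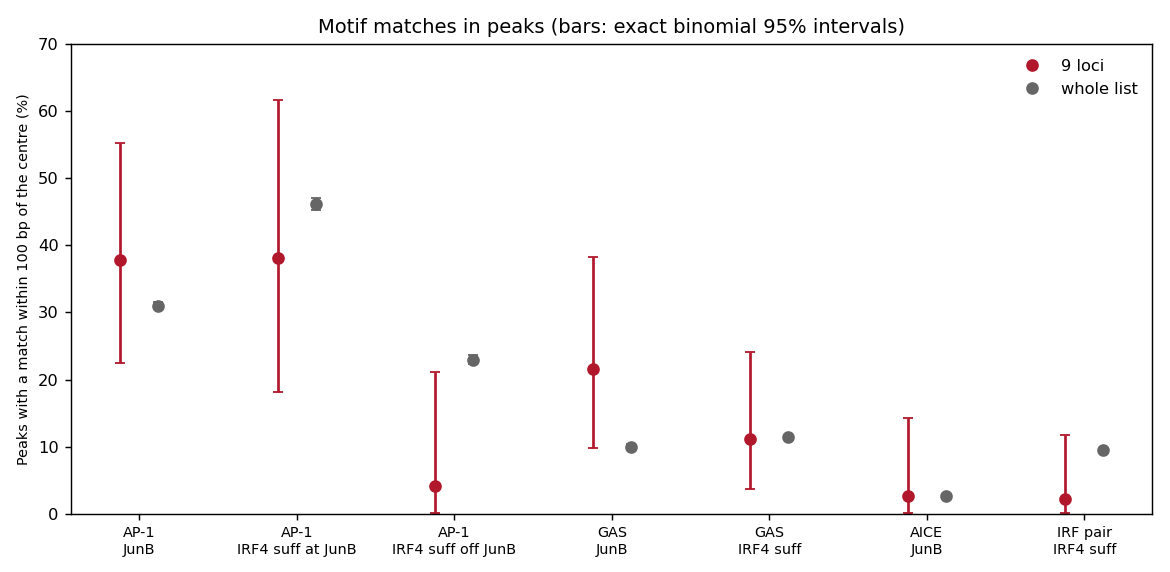
Share of peaks with motif letters within 100 bp of the peak centre (percent, points) with exact binomial 95% intervals (bars), for the 9 loci and the whole lists. The AP-1 share of IRF4 peaks off JunB lies below the whole list, and the GAS share of JunB peaks (21.6%) lies above its whole-list value (10.0%) with an interval that includes it.

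The pathway beyond these 9 genes was represented by 20 genes of related receptors, ligands, signalling molecules, and STAT5 targets. Their windows held 96 JunB, 49 BATF, 100 IRF4 (*Junb*-sufficient), and 96 IRF4 (*Junb*-deficient) peaks, with medians per gene of 4.50, 2.50, 5.00, and 6.00. Peaks of the 9 loci were not removed from this set. The window of *Il15ra*, among the 20, overlaps that of *Il2ra*. Its 3 JunB peaks, its 1 BATF peak, and some of its *Junb*-deficient IRF4 peaks were counted in both sets. No *Junb*-sufficient IRF4 peak was listed at *Il15ra*. JunB, BATF, and IRF4 shared a site at 16 of the 20, against 35.1% of protein-coding genes, with no matching for peak number. The share of IRF4 peaks at JunB without *Junb*-deficient counterpart was 13 of 52 (25%, 14.0 to 38.9%), close to the 23.8% at the 9 loci, and that off JunB was 18 of 48 (37.5%). An IRF4 peak at JunB was missing at 7 of the 20 genes, against 16.2% of protein-coding genes, again not matched for peak number. The highest counts were at *Jak1*, whose kinase pairs with the beta chain, with 4 of 7 missing, and at *Myc*, a growth regulator induced by IL-2, with 3 of 4. The share of all genes with as many missing is not given here. At *Foxp3*, the gene of the Treg lineage factor, both IRF4 peaks at JunB were kept, and 6 IRF4 peaks were listed in *Junb*-deficient against 3 in *Junb*-sufficient cells. A surplus of at least 3 was found at 1.84% of protein-coding genes. *Jak1*, *Myc*, and *Foxp3* were singled out after their values were seen.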

How the data were processed

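ChIP-seq peaks of 4 libraries, 1 per condition, were analysed. The authors aligned reads to mm9 and called peaks in each library by itself with HOMER (version 4.8 in the submitters' processing notes), at a false discovery rate of 0.001, 4-fold over the surrounding 10 kb, and 1 tag per bp. The deposited score is 1 for every peak, so neither heights nor tags per peak were used, and precision was expressed over peaks with Clopper-Pearson intervals.

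TSSs came from the GENCODE annotation of mm9, and the reference TSS of a gene is the most upstream TSS of its protein-coding transcripts. Peaks were counted per gene, compared by overlap of at least 1 bp, and placed by their order, with tied stretches set to their middle. Motif letters were matched on the mm9 sequence. Samples were grouped by title and genotype label. The 9 genes, the 20 other pathway genes, and the tests were chosen with earlier results of these data known. The rule for what is named took all 9 genes, the best-placed site with JunB, BATF, and IRF4 of each locus, the IRF4 peaks at JunB listed in 1 genotype only, and the peak of each list nearest to a TSS. Sequences were those of shared sites with a motif match, best places first, and of missing sites with an AP-1 match. Other peaks and sequences were chosen after their values were seen. Alternatives were other windows, overlaps, list lengths, motif windows, and an exchange of the BATF and IRF4 libraries. Overlap and motif procedures were tested on simulated data. Python 3.11.15, NumPy 2.4.6, SciPy 1.17.1, and matplotlib 3.10.9 were used. The RNA-seq, cytometry, and ChIP-PCR data of the study were not analysed here.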

Additional observations from a re-analysis of the deposited data

How the results depend on the processing

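Of 102 alternative values, 85 stayed within the interval of the main share or within 1.5 times the main count, and 17 did not. The 85 do not measure how firm the results are. Some could not move, since the exchange of libraries leaves the JunB and *Junb*-deficient IRF4 counts and the share of JunB peaks with both partners unchanged. Others were motif shares of few peaks with wide intervals, such as 0.0684 to 14.2% for AICE in JunB peaks. Within 25 kb, BATF peaks numbered 10, IRF4 peaks of *Junb*-sufficient cells 24, and those of *Junb*-deficient cells 23. Within 100 kb, the IRF4 peaks numbered 72 and 68. Restricted to peaks whose nearest TSS was that of a member, the counts were 22 JunB, 11 BATF, 22 IRF4 (*Junb*-sufficient), and 20 IRF4 (*Junb*-deficient). The first 50% of each list held 24 JunB peaks, and the first 13570 peaks of each list held 24 JunB and 28 *Junb*-sufficient IRF4 peaks. With the BATF and IRF4 libraries exchanged, BATF peaks numbered 45 and *Junb*-sufficient IRF4 peaks 21, the share of the latter at JunB was 85.7%, and the share of *Junb*-deficient IRF4 peaks without counterpart was 61.0%. The IRF pair was found in 14.6% of *Junb*-deficient IRF4 peaks when whole peaks were searched, which are longer than the windows. The other changes follow from the settings. Smaller windows, shorter lists, and the nearest-TSS rule can only remove peaks, and a larger window can only add them. The exchange swaps the BATF and IRF4 lists, and its changed shares were taken over the swapped lists. Counterparts within 1 kb and 5 kb were added after seeing the data. No paired analysis was possible because 1 library per condition was analysed. With 1 library per condition, a peak near the calling threshold may be listed in 1 genotype by sampling of tags alone, and neither its size nor its error could be given.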
